A study of Mus musculus with 18 samples.

Results

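The 9 tumours of the TRAMP mouse were split by how strongly they transcribed Top2a, the gene of DNA topoisomerase II alpha, an enzyme that untangles chromosomes during cell division. The groups were chosen by the MAS5 signal of Top2a itself: 3 tumours at 5000 or above, called Top2a-high here, and 6 below it, called Top2a-low, out of 18 arrays in the series. TRAMP (Transgenic Adenocarcinoma of the Mouse Prostate) is a transgenic mouse whose prostate epithelium expresses viral oncoproteins from a prostate promoter and develops prostate cancer. All 9 tumours carry that transgene and the labels name no treatment, age or stage. The other 9 arrays hold normal prostate, taken from the ventral and dorsolateral lobes, and serve as background. Each sample gave 1 array of 45101 probe sets. Nothing in the labels says that samples came from separate animals, so each p-value measures only the spread between these samples, and the number of arrays limits its precision.

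Above the boundary of 5000, Top2a signals were 8599 in tumour 1, 10142 in tumour 2 and 12028 in tumour 9, and the nearest tumour below it, tumour 4, had 2757. Mki67, which encodes the Ki-67 antigen of cycling cells, fits the label of a high proliferation group, with no test made of it. Its values on the log2(signal + 16) scale used throughout were 13.19, 13.27 and 13.67 in tumours 1, 2 and 9. The Top2a-low tumours had 9.74, 11.03 and 12.20 as lowest, median and highest value. Normal prostates had 5.19, 7.85 and 9.01 as lowest, median and highest value, all below every tumour, so the low group is slower only by comparison with the high group. From here on, 3 values for the high tumours are those of tumours 1, 2 and 9, and 3 values for the low tumours are the lowest, the median and the highest of 6. A difference is the log2 mean of the high minus that of the low tumours with its standard error, and adjusted p is limma's value after Benjamini-Hochberg adjustment over 13890 genes. A value under the 40th percentile of its array is called dim, as not above background, and where some values of a gene were dim the difference with these raised to that percentile follows the measured one. Because Top2a itself made the groups, that p says how cleanly a gene's values part along that split, and is not independent evidence about proliferation.

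As background, cells entering division release E2F factors from the retinoblastoma protein, which switches on genes of DNA synthesis. Later in the cycle a second set, for the mitotic spindle and chromosome separation, is switched on through the MuvB complex with B-Myb and FoxM1. Promoters of that second set are known for CCAAT boxes, bound by NF-Y, and for the cell cycle homology region with the letters TTTGAA. Prostate tumours of this mouse can be glandular, with luminal keratins and E-cadherin, or neuroendocrine, with secretory granule proteins such as chromogranin A.

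The promoters of Top2a, of Mki67 and of Ube2c, the ubiquitin-conjugating enzyme of the anaphase-promoting complex, are shown because they carry the letters more frequent in promoters of the mitosis list than in those of all genes tested. Each is RefSeq sequence of GRCm38.p6 from 250 bases before to 50 bases after the start, and capitals mark CCAAT and TTTGAA on either strand. They lie at chr11:99024140-99024439 (minus strand), chr7:135716330-135716629 (minus strand) and chr2:164769679-164769978 (plus strand).
Top2a: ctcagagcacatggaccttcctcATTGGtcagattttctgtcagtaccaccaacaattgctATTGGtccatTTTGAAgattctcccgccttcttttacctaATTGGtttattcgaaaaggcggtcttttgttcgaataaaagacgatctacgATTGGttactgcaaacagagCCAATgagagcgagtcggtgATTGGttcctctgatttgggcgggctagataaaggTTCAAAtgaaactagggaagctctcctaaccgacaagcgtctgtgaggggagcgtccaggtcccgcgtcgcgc
Mki67: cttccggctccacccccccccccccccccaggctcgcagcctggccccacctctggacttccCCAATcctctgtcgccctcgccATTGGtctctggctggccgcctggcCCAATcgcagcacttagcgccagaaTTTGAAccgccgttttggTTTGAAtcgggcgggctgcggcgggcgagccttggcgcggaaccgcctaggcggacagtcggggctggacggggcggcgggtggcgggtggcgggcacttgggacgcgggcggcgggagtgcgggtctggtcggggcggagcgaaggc
Ube2c: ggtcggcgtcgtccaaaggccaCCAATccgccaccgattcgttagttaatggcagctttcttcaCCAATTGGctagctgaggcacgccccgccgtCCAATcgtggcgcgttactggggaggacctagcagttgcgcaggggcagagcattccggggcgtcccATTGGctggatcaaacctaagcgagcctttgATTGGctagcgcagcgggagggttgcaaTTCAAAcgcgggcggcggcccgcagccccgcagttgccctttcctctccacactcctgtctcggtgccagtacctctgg
Top2a has 6 matches of CCAAT and 2 of TTTGAA, Mki67 has 3 and 2, and Ube2c has 6 and 1. Of 105 mitosis and cytokinesis genes with a promoter in the RefSeq table, 70.5% held CCAAT, 58.1% held TTTGAA and 46.7% held both. Among all 11150 tested genes with a promoter there, these shares were 38%, 12.1% and 4.89%. They were 42.3%, 14.6% and 7.41% among 513 genes that were higher in the high tumours and outside the cell division lists. The E2F letters TTTGGCGC and TTTCCCGC were each in 4.76% of the mitosis promoters, against 0.987% and 2% of all. A match describes letters in this window and is not a test of binding.

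Several tumours stood apart before any gene was compared. Tumours 3, 5 and 7, all Top2a-low, carried high levels of seminal vesicle genes. Averaged over the 11 measured seminal vesicle markers, their levels were 13.25, 13.82 and 12.87, against 9.26 and 9.46 in tumours 6 and 8, 7.49 in tumour 4 and 5.57 to 6.96 in the high tumours. Hoxb13, a homeobox gene of prostate epithelium, was at 4.39, 4.40 and 4.26 in tumours 3, 5 and 7, close to the floor of 4 that adding 16 sets. Normal sample 9 had a seminal vesicle average of 9.86 and a Hoxb13 value of 4.50, so normal ranges below include it. Tumour 4 carried urothelial genes, at an average of 12.23 against 8.03 to 9.35 in the other low tumours, and neuroendocrine genes, at 9.38 against 7.16 to 7.99. In bulk tissue, fewer cells of a type and less RNA per cell cannot be told apart. Tumours 6 and 8 were the most alike of the 36 tumour pairs: the SD of their log2 difference was 0.196 over 3006 bright probe sets, against 0.372 for the next pair, and they are also counted as 1 sample below. Spike controls were bright on tumours 1 to 5 and dim on tumours 6 to 9, so each set held both high and low tumours. The 18S control probe set also parted these sets, at 9.21 to 10.53 in tumours 1 to 5 and 12.31 to 13.98 in tumours 6 to 9. The actin 3' to 5' signal ratio, which grows as RNA degrades, was 0.974 ± 0.28 (log2, SD, n = 3) in high and 1.19 ± 0.599 (n = 6) in low tumours (two-sided exact permutation p = 0.595, where 84 splits allow no p below 0.0238).

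**Figure D1:**
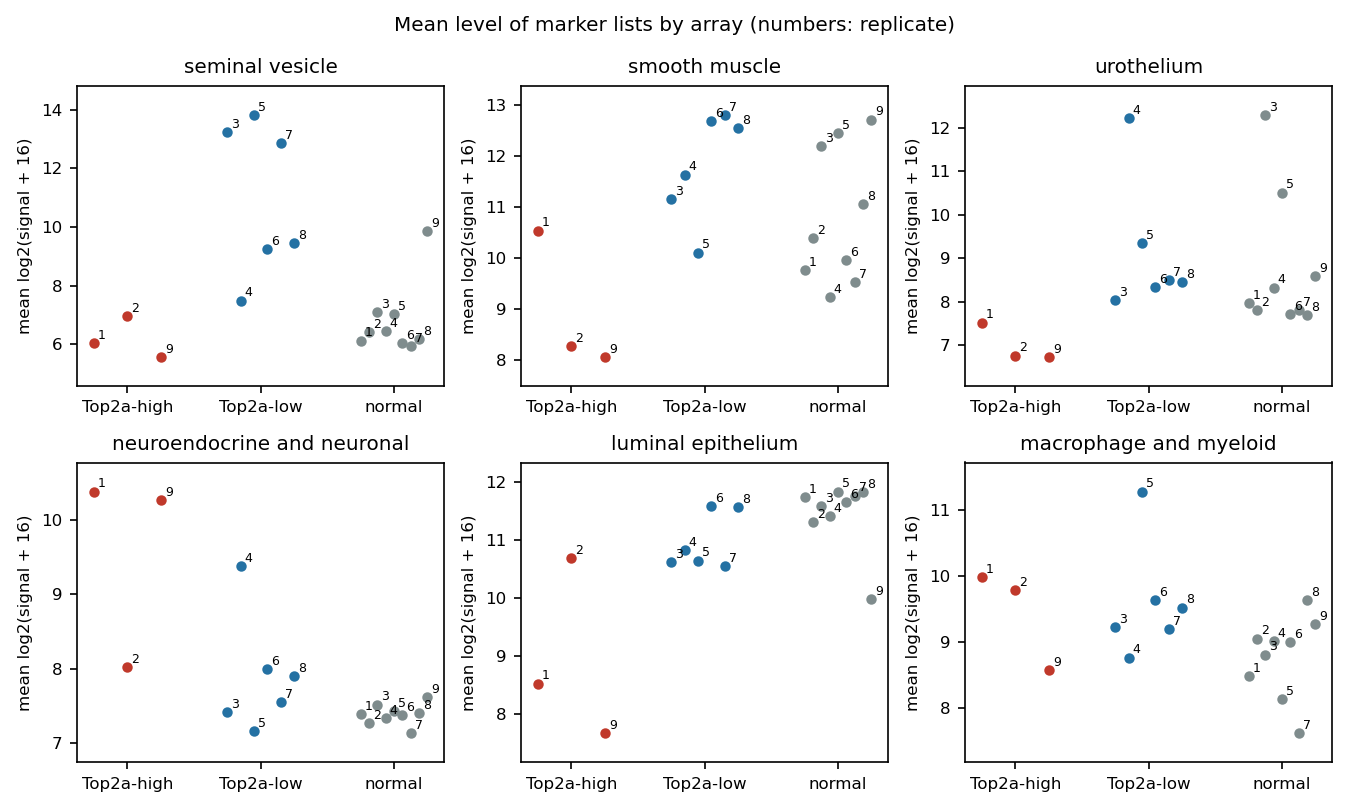
Mean log2(signal + 16) of 6 marker lists on each array (vertical axes), with the 3 Top2a-high tumours in red, the 6 Top2a-low tumours in blue and the 9 normal prostates in grey; numbers are replicates. Seminal vesicle markers sit between 12.87 and 13.82 in low tumours 3, 5 and 7, and urothelial markers at 12.23 in low tumour 4.

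Cell division genes stood high in the Top2a-high tumours. Top2a, which chose the groups, and Mki67 are themselves in the mitosis list. The values and counts of these lists are therefore a description and not a test. Of 280 genes in 4 lists of cell division, 164 passed the adjusted threshold of 0.05 upward and 0 downward, with a median difference of 1.57 against -0.07 over all genes. The mitosis and cytokinesis list contributed 104 of 127, DNA replication and nucleotide synthesis 29 of 75, RB and E2F regulators 17 of 39, and DNA repair and checkpoint 14 of 39. Over all genes, 5.58% passed upward. Ube2c was 12.82, 12.82 and 13.20 in the high tumours against 9.01, 9.73 and 10.55 in the low tumours. E2f8, an atypical E2F that represses in late S phase, was 11.01, 10.93 and 11.52 in the high tumours against 7.03, 8.68 and 9.11 in the low tumours. Rb1, the retinoblastoma gene whose protein the transgene's large T antigen binds, was 11.72, 11.69 and 12.47 in the high tumours against 9.73, 10.14 and 10.89 in the low tumours, so its transcript was higher where division genes were higher. E2f2, an activating E2F, was 10.25, 9.60 and 9.98 in the high tumours against 7.31, 7.98 and 8.54 in the low tumours. In each of these genes the 3 high tumours lay above all 6 low tumours. The mitosis count was 47 without tumour 1, 10 without tumour 9 and 15 without tumours 3, 5 and 7. In the order given, the other 3 counts were 12, 10 and 5 without tumour 1, 1, 0 and 1 without tumour 9, and 1, 2 and 3 without tumours 3, 5 and 7.

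Outside cell division, the split parted many genes in both directions. In all, 1626 of 13890 genes (11.7%) passed, 775 higher (5.58%) and 851 lower (6.13%) in the high tumours. Differences reached 2-fold or more for 614 of the higher and 727 of the lower genes. Without the cell division lists, 611 genes were higher and 851 lower, of 13610. The 3 high tumours lay above all 6 low tumours for 1297 genes (9.34%) and below them for 1282 (9.23%). On 5553 probe sets that name no single gene, 133 were higher and 297 lower.

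These counts rest on few tumours. Without tumour 9 they came to 20 higher and 52 lower, and without tumour 1 to 212 and 313, whereas without tumour 2 they came to 1376 and 1451. Without tumours 3, 5 and 7, the seminal vesicle-rich tumours, 31 genes were higher and 44 lower. Leaving out single low tumours gave between 769 genes (without tumour 7) and 2078 (without tumour 4); it was 963 without tumour 3, 1000 without tumour 6 and 986 without tumour 8. With tumours 6 and 8 averaged, 562 were higher and 506 lower. List counts given below for a tumour left out are to be read beside these totals, since calls over all genes changed too. Of the 1626 genes, 1626 kept their direction without tumour 9, and likewise without tumours 3, 5 and 7. This was largely fixed in advance, as the groups did not overlap in 717 of the higher and 737 of the lower genes. Among the 5 arrays with bright spike controls no gene passed the adjusted threshold by limma, and 1869 had an unadjusted p under 0.05. With the dim set alone, where tumour 9 is the only high tumour and is assumed to vary like the low ones, 937 genes were higher and 1668 lower.

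**Figure D2:**
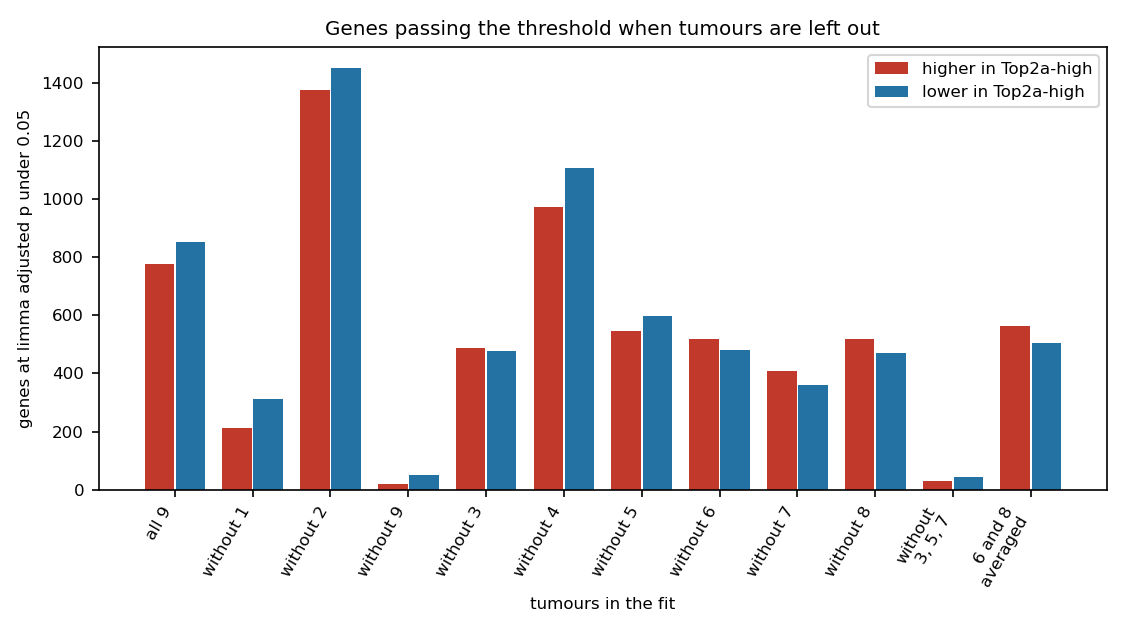
Number of genes at a limma adjusted p under 0.05 (vertical axis, from 0) with all 9 tumours, with each tumour left out, without tumours 3, 5 and 7, and with tumours 6 and 8 averaged; red bars count genes higher and blue bars genes lower in the Top2a-high tumours. The counts fall to 20 and 52 without tumour 9 and rise to 1376 and 1451 without tumour 2.

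Chromatin genes were among those that rose. Of 39 Polycomb and chromatin genes, 11 were higher (28.2%, beside 5.58% of all genes) and 0 lower (median 0.66). Ezh2, the methyltransferase of Polycomb repressive complex 2, rose: it was 12.64, 12.33 and 12.95 in the high tumours against 10.04, 11.03 and 11.35 in the low tumours (difference 1.77 ± 0.32, adjusted p = 0.013), and normal prostates had 8.49, 9.74 and 10.16 as lowest, median and highest value. Its complex partner Suz12 was also among the 11. Hdac2, a histone deacetylase, was 12.51, 12.49 and 12.84 in the high tumours against 10.51, 10.88 and 11.64 in the low tumours (difference 1.68 ± 0.27, adjusted p = 0.0118). Phf6, a chromatin-binding PHD finger protein, rose by 1.91 ± 0.33 (adjusted p = 0.0122), and Kdm1a, the histone demethylase LSD1, by 1.18 ± 0.22 (adjusted p = 0.0152). Of 9 measured histone genes, 4 rose (44.4%) and 0 fell. H2ax, the histone variant phosphorylated at DNA breaks, was 11.23, 11.95 and 11.75 in the high tumours against 9.38, 9.91 and 10.38 in the low tumours (difference 1.71 ± 0.28, adjusted p = 0.0118). Macroh2a2, a macroH2A variant associated with silent chromatin, rose by 2.14 ± 0.48 (adjusted p = 0.0255), with tumour 4 at 9.58 just above tumour 2 at 9.55. H2az2, an H2A.Z gene, rose by 1.20 ± 0.22 (adjusted p = 0.013).

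Part of the nuclear transport and RNA processing machinery rose as well. Of 34 nuclear transport genes, 17 were higher (50%, beside 5.58% of all genes) and 0 lower (median 0.99). Among the 17 were 11 nucleoporins whose symbols start with Nup and the nuclear transport receptors Xpo1, Cse1l, Ipo5 and Kpnb1. Nup37, a scaffold nucleoporin, was 10.31, 10.90 and 10.39 in the high tumours against 8.83, 9.07 and 9.47 in the low tumours (difference 1.44 ± 0.22, adjusted p = 0.0105). Nup54, a nucleoporin of the central channel, was 11.59, 11.72 and 11.77 in the high tumours against 9.78, 10.32 and 10.57 in the low tumours (difference 1.40 ± 0.22, adjusted p = 0.0105). Among 42 splicing factors, 12 were higher (28.6%) and 0 lower (median 0.64). Lsm2, a subunit of the ring that binds U6 snRNA, also rose: it was 10.50, 10.69 and 10.45 in the high tumours against 8.56, 8.99 and 9.34 in the low tumours (difference 1.62 ± 0.22, adjusted p = 0.00832). Normal prostates had 7.59, 8.04 and 8.72 as lowest, median and highest value for Lsm2, so the high tumours also lay above every normal sample. Snrpa1, the U2 protein A', rose by 1.19 ± 0.21 (adjusted p = 0.0126), and Hnrnpd, the RNA-binding protein AUF1, by 1.61 ± 0.32 (adjusted p = 0.0171). Without tumour 9 the counts of higher genes were 0 for chromatin, 0 for histones, 0 for nuclear transport and 1 for splicing, and without tumour 1 they were 4, 3, 9 and 4. Without any one of tumours 3, 5, 6 and 7 there were 6 chromatin genes, and without tumour 8 there were 7. Nuclear transport had 11 without tumour 3 and 10 without tumour 7, and splicing 7 without any one of tumours 6, 7 and 8. With tumours 6 and 8 averaged the 4 counts were 6, 4, 15 and 7, and without tumours 3, 5 and 7 all were 0.

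Genes of protein synthesis and turnover moved less. Of 55 genes of ribosome biogenesis and Myc targets, 7 were higher (12.7%, beside 5.58% of all genes) and 0 lower (median 0.42). Among the 7 was Ruvbl2, an AAA ATPase of chromatin and snoRNP assembly, at 9.83, 10.40 and 10.45 in the high tumours against 8.78, 8.94 and 9.05 in the low tumours (difference 1.30 ± 0.20, adjusted p = 0.0105). Pfas, an enzyme of purine synthesis, rose by 1.23 ± 0.22 (adjusted p = 0.0128), Nme1, a nucleoside diphosphate kinase, by 1.19 ± 0.24 (adjusted p = 0.0173), and Nop58, a core snoRNP protein, by 1.10 ± 0.25 (adjusted p = 0.0245). The count of 7 was 2 without tumour 1, 4 without tumour 3, 3 without tumour 7 and 0 without tumour 9 or without tumours 3, 5 and 7. Cytosolic ribosomal protein genes did not follow: 1 of 32 was higher (3.13%), 0 were lower and their median was -0.32, which turned to 0.04 after quantile normalization. Before that normalization, the 3 high tumours lay below all 6 low tumours in 13 of the 32, beside 9.23% of all genes. The higher gene, Rps25, rose by 0.93 ± 0.20 (adjusted p = 0.021). Myc itself was 7.99, 10.27 and 7.93 in the high tumours against 8.84, 9.08 and 10.004 in the low tumours, and its groups overlapped (difference -0.55 ± 0.53, adjusted p = 0.505). Proteasome subunits had 3 higher (9.09%, beside 5.58% of all genes) and 0 lower of 33. Among the 3 was Psmc6, an ATPase of the regulatory particle, up by 1.14 ± 0.19 (adjusted p = 0.0121).

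Energy and secretory genes showed few calls. Mitochondrial respiration had 2 higher and 0 lower of 36 (5.56% higher, near the 5.58% of all genes). Cycs, cytochrome c, was 14.06, 14.28 and 13.95 in the high tumours against 11.42, 12.42 and 13.50 in the low tumours (difference 1.73 ± 0.44, adjusted p = 0.0364). In glycolysis and hypoxia, 1 of 37 was higher and 1 lower (2.7% each, below the 5.58% and 6.13% of all genes). The higher one, Bnip3, a hypoxia-induced mitophagy receptor, was 12.29, 13.41 and 11.78 in the high tumours against 10.53, 11.16 and 11.25 in the low tumours (difference 1.51 ± 0.35, adjusted p = 0.0271). Of 27 genes of fatty acid and cholesterol synthesis, 1 was higher (3.7%, below the 5.58% of all genes) and 0 lower: Acsl3, an acyl-CoA synthetase, up by 2.22 ± 0.48 (adjusted p = 0.0222). Without tumour 9 these counts were 0, as was each list count of 4 or fewer given in the text except those of the Wnt and urothelial lists, which were 1. Endoplasmic reticulum folding and secretion had 0 higher and 4 lower of 44 (9.09%, beside 6.13% of all genes; median -0.50). Herpud1, a component of the degradation machinery of that organelle, fell: it was 10.24, 9.67 and 9.50 in the high tumours against 10.84, 11.58 and 12.26 in the low tumours (difference -1.77 ± 0.34, adjusted p = 0.0152). Ssr4, a subunit of the translocon-associated complex, was 11.66, 11.84 and 11.03 in the high tumours against 12.26, 13.16 and 14.29 in the low tumours (difference -1.71 ± 0.45, adjusted p = 0.0396). P4hb, protein disulfide isomerase (difference -1.33 ± 0.36, adjusted p = 0.043), and Atf6, a transcription factor of the unfolded protein response (difference -0.97 ± 0.26, adjusted p = 0.043), passed narrowly. The count of 4 was 9 without tumour 2, 11 without tumour 4, 0 without tumour 9 or without tumours 3, 5 and 7, and 1 without any other single tumour. The list averaged 11.72, 12.17 and 11.65 in tumours 3, 5 and 7, whose seminal vesicle markers were high, and 10.67 to 11.12 in the other low tumours; the part of that gland in the result was not tested.

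**Figure D3:**
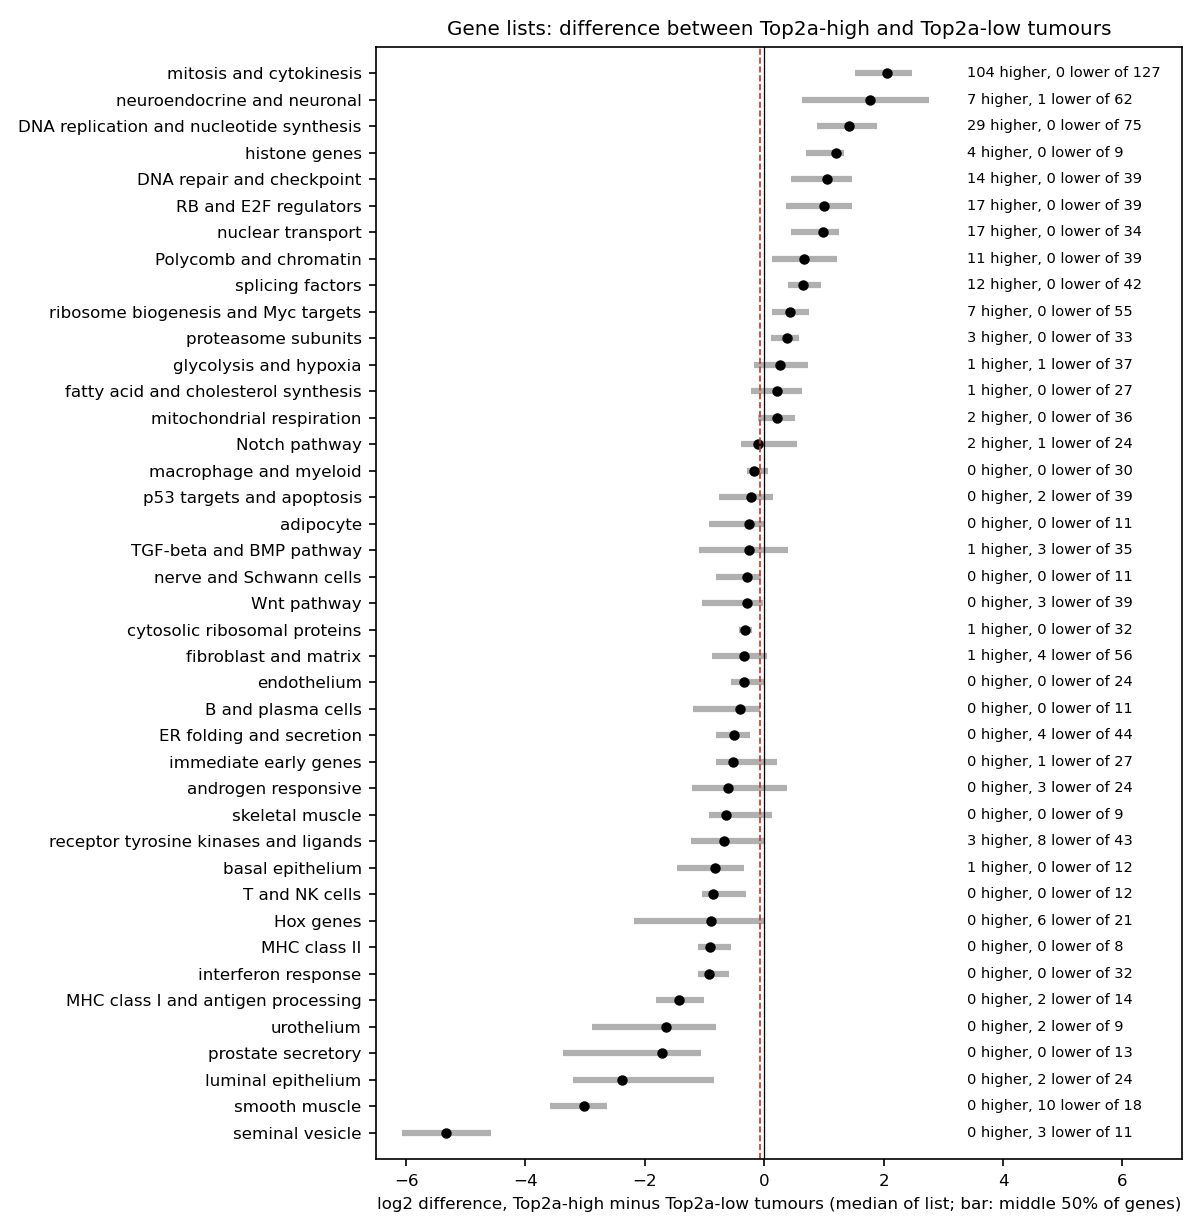
Median log2 difference between Top2a-high and Top2a-low tumours for 41 gene lists (points; horizontal axis), with bars over the middle 50% of genes, a dashed line at the median of all genes, -0.07, and the number of genes passing in each direction. Mitosis genes stand highest at 2.06 and seminal vesicle genes lowest at -5.34.

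The 12 largest measured rises outside cell division began with Prox1 and Robo1, and the first 6 described here were in none of the gene lists. Prox1, a homeodomain factor of neural progenitors and lymphatic vessels, was 10.87, 9.07 and 10.61 in the high tumours against 4.28, 5.69 and 8.41 in the low tumours (difference 4.30 ± 0.85, or 2.73 with 5 dim values raised, adjusted p = 0.0171), and normal prostates had 4.07, 4.55 and 5.98 as lowest, median and highest value. Robo1, a receptor of axon guidance, was 11.93, 13.25 and 11.89 in the high tumours against 6.95, 8.30 and 11.20 in the low tumours (difference 3.64 ± 0.88, or 3.59 with 1 dim value raised, adjusted p = 0.0306). Tumour 4 held the highest low value of both, 8.41 for Prox1 and 11.20 for Robo1. For Robo1 the highest value of all was that of tumour 2. Camta1, a calmodulin-binding transcription activator, was 10.93, 10.53 and 10.90 in the high tumours against 5.83, 7.32 and 9.21 in the low tumours (difference 3.41 ± 0.60, or 3.07 with 3 dim values raised, adjusted p = 0.0128). Neto2, an auxiliary subunit of kainate receptors, was 10.74, 9.44 and 10.52 in the high tumours against 5.13, 6.79 and 8.88 in the low tumours (difference 3.39 ± 0.76, or 2.60 with 4 dim values raised, adjusted p = 0.0246). Tumour 2 had the lowest of the 3 high values for Prox1, Camta1 and Neto2. Ctnnd2, a catenin of synapses, was 10.85, 11.27 and 11.58 in the high tumours against 7.11, 7.84 and 10.46 in the low tumours (difference 3.11 ± 0.64, or 3.08 with 2 dim values raised, adjusted p = 0.0193). Cadps, a priming factor of dense core vesicle release, was 10.84, 10.47 and 11.44 in the high tumours against 6.36, 7.77 and 9.90 in the low tumours (difference 3.07 ± 0.76, or 2.78 with 3 dim values raised, adjusted p = 0.0339). In each of these 6 genes tumour 4 came closest to the high group without reaching it.

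The remaining 6 of these rises follow. Fscn1, fascin, which bundles actin in cell protrusions, was 13.29, 13.09 and 13.86 in the high tumours against 9.10, 10.22 and 12.47 in the low tumours (difference 3.06 ± 0.69, adjusted p = 0.0246). Mex3b, an RNA-binding protein, was 11.61, 10.63 and 11.79 in the high tumours against 7.73, 8.03 and 9.79 in the low tumours (difference 2.99 ± 0.47, adjusted p = 0.0111). Lrr1, a substrate receptor in removal of the replication machinery, rose by 3.34 ± 0.67, or 3.06 with 1 dim value raised (adjusted p = 0.018) and is close to cell division in function although no list held it. Nt5dc2, a member of the nucleotidase domain family, rose by 3.28 ± 0.74, or 2.91 with 2 dim values raised (adjusted p = 0.0254). Pde10a, a cyclic nucleotide phosphodiesterase of the striatum, and Fgf14, an intracellular partner of sodium channels, were under the 40th percentile of their arrays in all 6 low tumours. With dim values raised, Pde10a was at least 3.65-fold higher (adjusted p = 0.0105) and Fgf14 at least 2.62-fold higher (adjusted p = 0.0408).

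The 3 high tumours did not share a lineage profile. Over the neuroendocrine and neuronal list, tumours 1, 2 and 9 averaged 10.38, 8.02 and 10.27. Over the luminal list they averaged 8.52, 10.68 and 7.66. Single members of both lists went the other way, as given below. Chga, chromogranin A of secretory granules, was 11.50, 7.19 and 12.24 in the high tumours against 4.38, 6.46 and 9.996 in the low tumours (difference 3.75 ± 1.32, or 2.59 with 5 dim values raised, adjusted p = 0.0897). Insm1, a transcription factor of neuroendocrine cells, was 12.29, 7.21 and 12.81 in the high tumours against 5.19, 6.13 and 11.23 in the low tumours (difference 3.89 ± 1.51, or 2.85 with 5 dim values raised, adjusted p = 0.114), with tumour 4 at 11.23. Both set tumours 1 and 9, and less far tumour 4, apart from the other tumours. Scg3, a granule protein, was at 4.39 in tumour 2 and at 11.67 and 11.86 in tumours 1 and 9. Mycn, the N-Myc gene, was 11.27, 7.20 and 11.46 in the high tumours against 6.27, 6.88 and 9.54 in the low tumours. On the epithelial side, Cdh1, which encodes E-cadherin, was 8.95, 13.71 and 6.45 in the high tumours against 13.35, 13.51 and 14.06 in the low tumours (difference -3.93 ± 1.21, or -3.78 with 1 dim value raised, adjusted p = 0.0623). Krt8, a luminal keratin, was 9.36, 13.95 and 7.72 in the high tumours against 13.65, 13.86 and 14.04 in the low tumours (difference -3.51 ± 1.05, adjusted p = 0.0587), and its partner Krt18 was 9.56, 14.00 and 7.05 in the high tumours against 13.73, 14.12 and 14.65 in the low tumours. Keratin and E-cadherin in tumour 2 were thus near the level of the low tumours. Tumour 2 also stood alone in Foxa2 and Sox2, both in the neuroendocrine list. Foxa2, a forkhead factor, was at 11.57 there, against at most 7.74 in every other tumour. Sox2, a stem cell factor, was at 13.70 against at most 9.64. Foxa1, a luminal forkhead factor, was 12.66, 7.44 and 13.36 in tumours 1, 2 and 9, lowest in tumour 2 of all 9 tumours. Hoxb13, like Foxa1 in the luminal list, was also higher in tumours 1 and 9 than in tumour 2. The single genes Insm1, Scg3, Sox2 and Foxa1 were chosen after their values were seen.

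Counts of calls in these lists changed with the tumour left out, and so did those over all genes. Over all genes, 775 were higher and 851 lower with all tumours. They were 1376 and 1451 without tumour 2, 972 and 1106 without tumour 4, and 20 and 52 without tumour 9. Of 62 neuroendocrine and neuronal genes, 7 were higher and 1 lower with all tumours (11.3% and 1.61%, beside 5.58% and 6.13% of all genes, median 1.77). The higher count was 37 without tumour 2, 17 without tumour 4, 2 without tumour 1, 0 without tumour 9 and 3 or 4 without any other single tumour. Of 24 luminal genes, 0 were higher and 2 lower with all tumours (8.33%, beside 6.13% of all genes, median -2.39). The lower count was 14 without tumour 2, 4 without tumour 4 and 0 without any other single tumour. The luminal genes that passed were Spdef, an ETS factor of secretory epithelium, dim in all 3 high tumours and at least 2.91-fold lower (adjusted p = 0.03), and Grhl2, a grainyhead factor of epithelia, which was 8.67, 11.07 and 8.64 in the high tumours against 10.84, 11.45 and 11.72 in the low tumours (difference -1.94 ± 0.50, adjusted p = 0.0374).

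In 3 of the 7 neuroendocrine and neuronal genes that rose, all 3 high tumours, tumour 2 included, lay above all 6 low tumours. Hes6, a bHLH factor of neuronal differentiation, was 10.94, 11.31 and 11.24 in the high tumours against 8.41, 9.01 and 9.88 in the low tumours (difference 2.16 ± 0.32, adjusted p = 0.0102). Nrcam, a neuronal adhesion molecule, was 9.17, 10.89 and 10.04 in the high tumours against 6.44, 6.81 and 8.22 in the low tumours (difference 2.96 ± 0.48, or 2.53 with 4 dim values raised, adjusted p = 0.0117), with tumour 2 highest. Sox4, a SoxC factor of progenitors, was 13.92, 14.04 and 14.18 in the high tumours against 12.15, 12.38 and 13.36 in the low tumours (difference 1.49 ± 0.29, adjusted p = 0.0169). The cytoskeletal genes Map2 (difference 2.94 ± 0.78, adjusted p = 0.0407), Dpysl3 (2.09 ± 0.51, adjusted p = 0.0314) and Dpysl5 (2.79 ± 0.73, or 1.64 with 5 dim values raised, adjusted p = 0.039) and the amyloid precursor-like gene Aplp1 (2.52 ± 0.65, adjusted p = 0.038) completed the 7. In Map2, Dpysl3, Dpysl5 and Aplp1 tumour 4 overlapped the high group. For tumour 2 alone against the low tumours none of the 7 passed by limma (adjusted p from 0.0659 for Nrcam to 0.704 for Aplp1). Isl1, a LIM homeodomain factor listed with neuroendocrine genes, fell: it was 7.41, 6.67 and 4.64 in the high tumours against 8.21, 11.06 and 12.55 in the low tumours (difference -4.64 ± 0.92, or -3.78 with 2 dim values raised, adjusted p = 0.0171). Cdh2, which encodes N-cadherin, was 11.40, 9.50 and 12.10 in the high tumours against 5.66, 6.62 and 10.34 in the low tumours (difference 3.94 ± 0.99, or 3.21 with 4 dim values raised, adjusted p = 0.0345), with tumour 4 again above tumour 2.

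**Figure D4:**
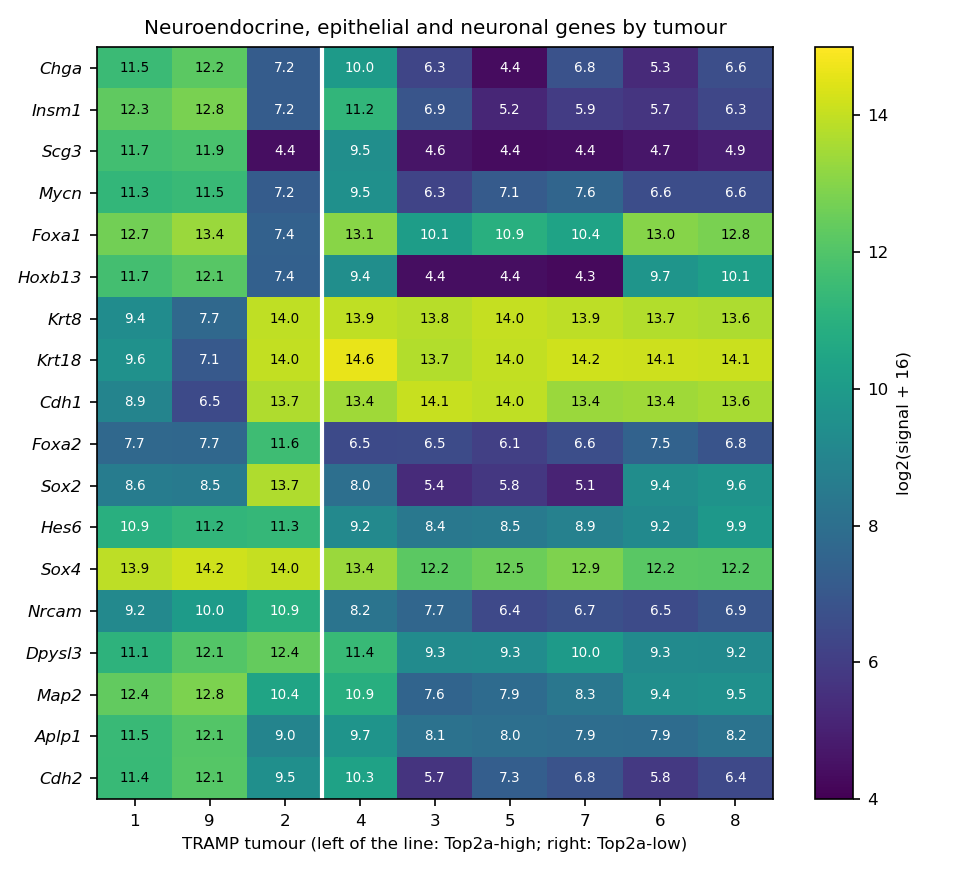
Values (log2(signal + 16); color and printed number) of 18 genes in the 9 tumours (columns), with the 3 Top2a-high tumours left of the white line. Tumours 1 and 9 have Chga at 11.5 and 12.2 and Cdh1 at 8.9 and 6.5, while tumour 2 has Chga at 7.2 and Cdh1 at 13.7.

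Of the 12 largest measured falls, 3 were in the seminal vesicle list, 2 in the urothelial list, 1 each in the Wnt and neuroendocrine lists (Wnt4 and Isl1) and 5 in none. Tspan8, a tetraspanin of glandular epithelium, was 4.83, 4.68 and 4.10 in the high tumours against 11.63, 12.99 and 13.35 in the low tumours. All 3 high values were under the 40th percentile of their arrays, and the gene was at least 53.5-fold lower in the high tumours (adjusted p = 2.04e-05). Normal prostates had 9.34, 10.47 and 12.02 as lowest, median and highest value, so the high tumours lay below every normal sample too. The call held without tumour 9 (adjusted p = 0.000373), without tumours 3, 5 and 7 (adjusted p = 0.00719) and for tumour 2 alone against the low tumours (adjusted p = 0.00552).

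Adh1, an alcohol and retinol dehydrogenase, was 10.77, 7.79 and 7.76 in the high tumours against 13.58, 14.16 and 14.39 in the low tumours (difference -5.34 ± 0.60, adjusted p = 0.00519), against 13.35, 13.65 and 14.44 as lowest, median and highest value in normal prostates. Clu, clusterin, a secreted chaperone, was 10.61, 11.08 and 7.80 in the high tumours against 12.73, 15.34 and 15.74 in the low tumours (difference -5.16 ± 0.82, adjusted p = 0.0114), and normal prostates had 12.87, 13.52 and 14.45 as lowest, median and highest value. For both genes all 3 high tumours lay below all low tumours and all normal samples. Gata3, a zinc finger factor of luminal and urothelial cells, was 8.25, 4.36 and 4.53 in the high tumours against 10.79, 11.97 and 12.59 in the low tumours (difference -6.05 ± 0.81, or -4.38 with 2 dim values raised, adjusted p = 0.00803). Plet1, a surface protein of epithelial progenitors, was 6.66, 8.2 and 4.75 in the high tumours against 9.77, 11.39 and 12.43 in the low tumours (difference -4.66 ± 0.84, or -3.75 with 2 dim values raised, adjusted p = 0.0133). Upk1b, a uroplakin of the urothelium, was 7.38, 6.57 and 6.58 in the high tumours against 10.58, 11.93 and 14.42 in the low tumours (difference -5.25 ± 0.84, or -5.00 with 2 dim values raised, adjusted p = 0.0114), with its highest value in tumour 4. Of 9 urothelial genes 2 fell (22.2%, beside 6.13% of all genes), Upk1b and Gata3, and both are also known from other epithelia. The count was 1 without tumour 9 or without tumours 3, 5 and 7.

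Of 11 measured seminal vesicle genes, 0 were higher and 3 lower (27.3%, beside 6.13% of all genes; median -5.34), and in 6 the high tumours lay below all low tumours. Svs4 was 4.30, 9.38 and 4.37 in the high tumours against 10.70, 14.72 and 15.59 in the low tumours (difference -8.19 ± 1.33, or -6.37 with 2 dim values raised, adjusted p = 0.0117). Svs2, a main protein of the copulatory plug, was 4.36, 6.96 and 4.07 in the high tumours against 9.10, 13.16 and 15.80 in the low tumours and at least 58.2-fold lower in the high tumours (adjusted p = 0.0214). Its normal values, 4.17, 4.41 and 15.27 as lowest, median and highest value, had a median near the floor, so 2 of the 3 high tumours lay at the level of most normal samples. Svs5 differed by -6.06 ± 1.08, or -5.82 with 1 dim value raised (adjusted p = 0.013), and Pate14, a small secreted protein of the Ly6 family, was at least 34.2-fold lower (adjusted p = 0.0361). Without tumours 3, 5 and 7, the adjusted p was 0.0992 for Svs4, 0.0671 for Svs2 and 0.0914 for Svs5, and these 3 calls were lost. Their differences in that fit were still -6.96, -4.99 and -4.60, and Pate14 passed narrowly (adjusted p = 0.0499). The count of 3 was 7 without tumour 4, 2 without tumour 1 and 0 without tumour 9.

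Of 13 prostate secretory genes, 0 passed by limma in either direction, and 5 had an unadjusted p under 0.05 (38.5%, beside 31.2% of all genes; median -1.72). Of 24 androgen responsive genes 0 were higher and 3 lower (12.5%, beside 6.13% of all genes; median -0.60); the 3 became 1 without tumour 1 or 5, and 0 without any one of tumours 3, 6, 7, 8 and 9. Besides Spdef, these were Hpgd, the prostaglandin dehydrogenase, at 11.60, 7.53 and 6.41 in the high tumours against 11.59, 12.15 and 12.72 in the low tumours (difference -3.64 ± 0.93, or -3.48 with 1 dim value raised, adjusted p = 0.0365), and Tmprss2, a serine protease, at 7.57, 10.02 and 6.89 in the high tumours against 9.78, 11.20 and 13.40 in the low tumours (difference -3.07 ± 0.83, or -3.06 with 1 dim value raised, adjusted p = 0.043). For Hpgd, tumour 1 lay among the low tumours. Among 12 basal genes 1 was higher (8.33%, beside 5.58% of all genes) and 0 lower. Most of them leaned down, with a median of -0.83 and a positive difference in only 3 of the 12. The higher one was Ngfr, the p75 neurotrophin receptor, up by 1.01 ± 0.23, or 0.98 with 1 dim value raised (adjusted p = 0.0275). Trp63, the basal regulator p63, did not pass (difference -2.49 ± 0.89, or -2.25 with 1 dim value raised, adjusted p = 0.0942).

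**Figure D5:**
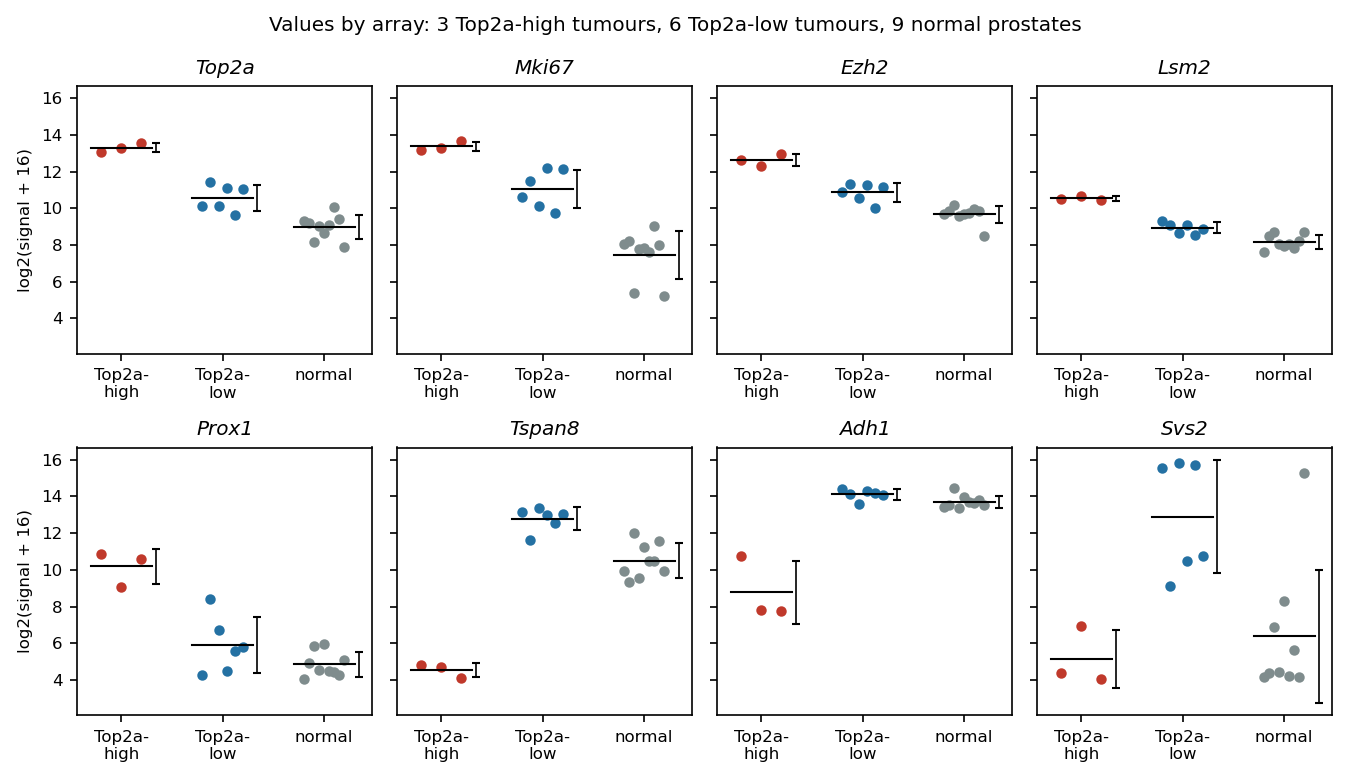
Values of 8 genes on each array, log2(signal + 16), for the 3 Top2a-high tumours (red), the 6 Top2a-low tumours (blue) and the 9 normal prostates (grey); lines are means and error bars SD. Tspan8 is at or below 4.83 in the high tumours and at or above 9.34 on all other arrays.

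Smooth muscle genes were lower in the high tumours. Of 18 genes, 10 fell, 0 rose and the median was -3.03, beside 6.13% of all genes passing downward. Lmod1, leiomodin of smooth muscle, was 7.06, 5.32 and 4.93 in the high tumours against 8.01, 9.62 and 10.38 in the low tumours and at least 4.96-fold lower (adjusted p = 0.0166). Acta2, smooth muscle actin, was 13.60, 12.20 and 10.94 in the high tumours against 14.18, 15.15 and 15.83 in the low tumours (difference -2.79 ± 0.57, adjusted p = 0.0189). Tagln, transgelin, was 12.44, 10.50 and 8.45 in the high tumours against 12.80, 14.28 and 15.26 in the low tumours (difference -3.77 ± 0.82, adjusted p = 0.0225). The list averaged 10.54, 8.27 and 8.06 in tumours 1, 2 and 9 and 10.11, 12.09 and 12.81 in the low tumours, so tumour 1 overlapped tumour 5. Normal prostates ranged from 9.23 to 12.72. The count of 10 was 0 without tumour 9, 12 without tumour 1, 7 without tumour 2, 5 without tumour 3, 4 without tumour 6, 2 without tumour 7, 3 without tumour 8, 4 with tumours 6 and 8 averaged and 1 without tumours 3, 5 and 7. The part of tissue make-up in this result was not tested.

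Other stromal and immune lists had few genes past the threshold. Fibroblast and matrix genes had 1 higher, Cdh2, and 4 lower of 56 (7.14%, near the 6.13% of all genes; median -0.34). The lower count was 9 without tumour 2, 2 without tumour 3 or 8, 1 without tumour 5, 6 or 7 and 0 without tumour 9. The lower ones were Col6a1, Snai2, Ogn and Twist2. Snai2, the zinc finger factor Slug, was 6.61, 8.73 and 6.83 in the high tumours against 10.06, 10.28 and 11.53 in the low tumours (difference -3.06 ± 0.49, or -2.83 with 2 dim values raised, adjusted p = 0.0114). Ogn, the proteoglycan osteoglycin, was 10.02, 7.63 and 7.05 in the high tumours against 10.41, 10.89 and 12.90 in the low tumours (difference -2.93 ± 0.70, adjusted p = 0.0295), and Twist2, a bHLH factor of mesenchyme, differed by -1.79 ± 0.47, or -1.74 with 1 dim value raised (adjusted p = 0.0393). Endothelium (24 genes), macrophage and myeloid (30), T and NK (12), B and plasma (11), MHC class II (8), interferon response (32), adipocyte (11), nerve and Schwann (11) and skeletal muscle genes (9) had 0 genes past the limma threshold and 26 of 148 at an unadjusted p under 0.05 (17.6%, beside 31.2% of all genes), with medians between -0.92 and -0.17. Of 14 genes of MHC class I and antigen processing, 0 were higher and 2 lower (14.3%, beside 6.13% of all genes, median -1.43). H2-K1, a class I heavy chain, was 12.49, 13.74 and 10.76 in the high tumours against 13.65, 14.82 and 15.33 in the low tumours (difference -2.34 ± 0.59, adjusted p = 0.0347), and H2-D1, a second heavy chain, differed by -1.75 ± 0.48 (adjusted p = 0.0451). Neither of these 2 passed after quantile normalization (adjusted p = 0.0521 and 0.0604). Without tumour 2, 8 of the 14 were lower, without tumour 4 there were 7, and without any other single tumour there were 0. Over all genes, 1451 were lower without tumour 2 and 1106 without tumour 4, beside 851 with all tumours. B2m, the class I light chain, was 13.55, 14.29 and 11.63 in the high tumours against 13.92, 15.29 and 15.68 in the low tumours (difference -1.99 ± 0.57, adjusted p = 0.05).

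Of 43 receptor tyrosine kinases and ligands, 3 were higher (6.98%, beside 5.58% of all genes) and 8 lower (18.6%, beside 6.13% of all genes). The median was -0.67. Insr, the insulin receptor, was 9.57, 9.21 and 9.32 in the high tumours against 10.15, 10.31 and 10.75 in the low tumours (difference -1.01 ± 0.20, adjusted p = 0.0183). Fgfr2, the epithelial receptor of fibroblast growth factors, was 9.27, 9.13 and 7.71 in the high tumours against 10.05, 10.76 and 11.78 in the low tumours (difference -2.14 ± 0.46, adjusted p = 0.0213). Pdgfd, a platelet-derived growth factor, was 8.14, 6.89 and 4.45 in the high tumours against 8.99, 9.90 and 10.69 in the low tumours (difference -3.39 ± 0.73, or -2.54 with 2 dim values raised, adjusted p = 0.0214). Epha7, an ephrin receptor of the nervous system, rose: it was 9.23, 9.80 and 9.81 in the high tumours against 5.43, 7.28 and 8.28 in the low tumours (difference 2.59 ± 0.57, or 2.09 with 3 dim values raised, adjusted p = 0.0236). The other higher genes were Kitl and Fgf14, and the other lower ones Fgf1, Fgf7, Igf2r, Axl and Fgfr3. The lower count was 0 without tumour 9, 13 without tumour 2, 9 without tumour 4 and 3 to 5 without any other single tumour. Without tumours 3, 5 and 7 both counts were 0.

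In the Wnt pathway 0 of 39 genes were higher and 3 lower (7.69%), near the share of all genes. Wnt4, a ligand of reproductive tract development, lay below every low tumour in all 3 high tumours: it was 5.64, 7.05 and 6.03 in the high tumours against 9.66, 11.06 and 11.56 in the low tumours (difference -4.66 ± 0.46, or -3.84 with 2 dim values raised, adjusted p = 0.00303). It passed without tumours 3, 5 and 7 (adjusted p = 0.0198) and without tumour 9 (adjusted p = 0.0203). Porcn, which acylates Wnt ligands for secretion, differed by -1.43 ± 0.25, or -1.31 with 2 dim values raised (adjusted p = 0.0125), and the receptor Fzd5 by -1.39 ± 0.33, or -1.29 with 1 dim value raised (adjusted p = 0.0293). The Notch list had 2 higher and 1 lower of 24 (8.33% and 4.17%, beside 5.58% and 6.13% of all genes). The higher ones were Hes6 and the Notch effector Hes5 (difference 2.93 ± 0.82, or 1.21 with 6 dim values raised, adjusted p = 0.0487). The lower one was Dtx4, a Deltex ubiquitin ligase (difference -1.21 ± 0.30, adjusted p = 0.0349). Of 35 TGF-beta and BMP genes, 1 was higher (2.86%) and 3 lower (8.57%), near the shares of all genes. Tgfbr3, betaglycan, was 9.51, 7.70 and 8.54 in the high tumours against 9.75, 10.90 and 11.21 in the low tumours (difference -2.21 ± 0.43, adjusted p = 0.0163). Ltbp3, a latent TGF-beta binding protein, differed by -1.07 ± 0.21 (adjusted p = 0.0169), and Bmpr1b, a BMP receptor, was at least 4.68-fold lower (adjusted p = 0.0479), with normal prostates at 8.79, 12.66 and 13.03 as lowest, median and highest value. The lower counts of the Wnt and TGF-beta lists were both 9 without tumour 2, 2 and 1 without tumour 1, and 1 and 0 without tumour 9. Acvr1, an activin receptor-like kinase, rose by 1.5 ± 0.41 (adjusted p = 0.0438) on its brightest probe set. Other probe sets of the gene differed by 0.56 and -0.27 and did not pass by limma (adjusted p = 0.246 and 0.518).

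Of 21 Hox genes, 6 fell (28.6%, beside 6.13% of all genes) and 0 rose (median -0.90). Hoxd13 was 7.79, 7.42 and 6.91 in the high tumours against 8.75, 10.77 and 11.27 in the low tumours (difference -2.96 ± 0.61, or -2.95 with 1 dim value raised, adjusted p = 0.0196). Hoxb3 was 8.46, 7.90 and 6.47 in the high tumours against 8.89, 10.37 and 10.91 in the low tumours (difference -2.45 ± 0.56, or -2.30 with 1 dim value raised, adjusted p = 0.0268), and Hoxb4 (-2.01 ± 0.46, or -1.80 with 2 dim values raised, adjusted p = 0.027), Hoxa11 (-1.61 ± 0.38, or -1.60 with 1 dim value raised, adjusted p = 0.0287), Hoxb2 and Hoxb5 were also lower. The count was 0 without tumour 9, 1 without tumour 7 and 0 without tumours 3, 5 and 7. Hoxb13 did not follow the split: it was 11.70, 7.36 and 12.15 in the high tumours against 4.26, 6.91 and 10.15 in the low tumours (difference 3.34 ± 1.74, or 1.91 with 3 dim values raised, adjusted p = 0.22). Of 39 p53 target and apoptosis genes, 0 were higher and 2 lower (5.13%, below the 6.13% of all genes; 8 without tumour 2 and 0 without any one of tumours 1, 3, 7 and 9): Ccng1, cyclin G1, a p53 target, at 10.29, 10.87 and 10.17 in the high tumours against 11.12, 12.04 and 12.49 in the low tumours (difference -1.46 ± 0.34, adjusted p = 0.0273), and Trp73, the p53 relative p73, dim in all 3 high and in 3 low tumours (adjusted p = 0.0408). Cdkn2a, the locus of the inhibitors p16 and p19ARF, was 11.04, 11.56 and 10.81 in the high tumours against 8.81, 10.32 and 10.95 in the low tumours (difference 1.10 ± 0.50, adjusted p = 0.164). Among 27 immediate early genes 0 were higher and 1 was lower (3.7%, below the 6.13% of all genes; 8 without tumour 2 and 0 without any one of tumours 1, 3, 5, 6, 7 and 9), Nr4a3, an orphan nuclear receptor, by at least 6.41-fold (adjusted p = 0.0418).

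Genes whose pattern over the 9 tumours most resembled that of Top2a were ranked by Pearson's r, as a description, with cell division lists left out. Myb, the proto-oncogene of progenitor cells, led with r = 0.992 and was 10.39, 10.53 and 10.61 in the high tumours against 6.92, 8.13 and 8.46 in the low tumours. Pclaf, a PCNA-associated factor, followed with r = 0.991 at 13.37, 13.29 and 13.65 in the high tumours against 10.07, 11.21 and 12.14 in the low tumours. Next came Rnaseh2b, a subunit of ribonuclease H2 (r = 0.987), the mitochondrial phosphatase Pgam5 (r = 0.987), the exosome ribonuclease Dis3 (r = 0.987) and the splicing factor Srsf3 (r = 0.983). The phosphatase gene Mtmr7 (r = 0.982), the linker histone gene H1f10 (r = 0.981), the DNA end-processing gene Tdp2 (r = 0.981) and the Polycomb-associated gene Epop (r = 0.980) completed the 10. With 9 points in 2 separate clusters, an r near 1 mostly records that a gene parts the same 3 tumours from the same 6. Myb and Mtmr7 were among the genes that also passed by limma without tumours 3, 5 and 7 (adjusted p = 0.0272 and 0.0395). Because they were picked for following Top2a, which made the groups, these p-values are not independent support.

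A further 12 genes that the naming rule always takes did not pass: Ncam1, Syp, Krt5, Vim, Col1a1, Pecam1, C1qa, Ptprc, H2-Aa, Cdkn1a, Hk2 and Scd1. Their differences ran from -1.32 to 1.42 with adjusted p from 0.121 to 0.985, and 10 of the 12 changed sign under at least 1 alternative setting.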

How the data were processed

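Total RNA of 18 mouse samples, extracted with Trizol, was labelled with biotin and measured on Affymetrix arrays; the labels' protocols say so. The deposited values are linear intensities, 1 per probe set. The authors made them with MAS5, per the submitters' processing notes, which name no version. The deposited intensities had a 2% trimmed mean of 500 on every array, so arrays were scaled by a single factor, which leaves dim probe sets noisy.

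Groups came from the labels, and tumours were then split by the Top2a probe set at a signal of 5000. The platform table gives 1 gene for 34945 of 45101 probe sets, several for 932 and none for 9160, besides 64 controls. By Entrez identifier, 34741 matched a GRCm38.p6 gene table, used for names. Log2(signal + 16) was used with no further normalization, and a fold change on that scale understates the change of dim genes. Probe sets above the 40th percentile of their array on at least 3 of 9 tumours were kept (24960), and each of 13890 genes was represented by its brightest. The genes Clmn, Ctse and Hnrnpl had probe sets called both higher and lower. The 3 and 6 tumours were compared with limma 3.58.1 under R 4.3.3 (lmFit, eBayes), two-sided, at an adjusted p under 0.05. Values under the 40th percentile of their array were called dim; a fold given as "at least" sets the mean of one group against that of a group dim on all arrays, raised to that percentile. On simulated data with 13890 genes the code recovered 23%, 65% and 86% of 100 genes each raised by 1, 2 and 3 on the log2 scale and 69% of 100 lowered by 2, with 18 false calls of 261. The simulated noise was normal and independent between genes and arrays, unlike these tumours. It checks the code and does not give the share of false calls here.

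The members, the 41 gene lists and the tests were chosen with earlier results of these data known. The lists hold 1493 symbols, of which 1263 were tested and 133 lacked a probe set naming them alone. Genes were named by rule: the 12 largest rises and falls outside cell division among separated, passing genes, up to 4 per list by absolute t, a list of genes taken always, and the 10 most like Top2a by Pearson's r; Insm1, Scg3, Sox2, Foxa1, Hoxb2, Hoxb5 and list members given by symbol only were chosen after values were seen. Alternatives were other pseudocounts, filters, scalings, probe set rules, fits, covariates and omissions of tumours; tumour 2 alone against the low tumours and tumours 6 and 8 averaged were added after seeing the data. Spike control sets are read from the control probe sets, since the labels name no batch. Promoters are RefSeq sequences of GRCm38.p6, the first listed for each gene. Plots used matplotlib 3.10.9 (Python 3.11.15).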

Additional observations from a re-analysis of the deposited data

Results flagged for a closer look

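Within the 6 Top2a-low tumours and the 9 normal prostates, the values of the named genes were checked for a sample far from the rest of its group; such gaps arise by chance in about 1 in 20 groups. Tumour 4 was far above the other low tumours in Ctnnd2 (10.5, next 8.11), Cdh2 (10.3, next 7.28), Insm1 (11.2, next 6.89), Scg3 (9.45, next 4.91), Dpysl3 (11.4, next 9.98) and Aplp1 (9.68, next 8.19). It was far below them in Svs4 (10.7, next 14.1), Clu (12.7, next 15.1), Spdef (6.37, next 8.36), Grhl2 (10.8, next 11.4) and B2m (13.9, next 15.2). Tumour 3 was far above the rest in Snai2 (11.5, next 10.4) and Ogn (12.9, next 11.2), and tumour 5 far below in Adh1 (13.6, next 14.1) and Tgfbr3 (9.75, next 10.8). Normal sample 9 was far above the other normal samples in Svs2 (15.3, next 8.28) and far below them in Hoxb13 (4.5, next 10.8) and Ezh2 (8.49, next 9.56). Outside the named genes, 133 of the probe sets that name no single gene were higher and 297 lower in the high tumours.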

How the results depend on the processing

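The number of genes past the adjusted threshold, 1626, stayed within 1.5 times under other pseudocounts, filters, scalings and probe set rules and an intensity trend. It also did so with the spike control set as a block or the actin ratio as a covariate. The same held where the log2 value of Top2a or Mki67 replaced the groups in the fit. Such a fit counts genes that follow that value and does not adjust for it. Over these settings the number ran from 1218 to 2124. It was 5716 with array weights, 3235 with all 18 arrays in the fit, 2605 among arrays with dim spike controls, 0 among those with bright ones, 1068 with tumours 6 and 8 averaged, 75 without tumours 3, 5 and 7, 0 without tumours 3, 5, 6, 7 and 8 (1140 at an unadjusted p under 0.05), 8 in a test against a 2-fold change and 66 for tumour 2 against the 6 low tumours; fewer tumours enter several of these fits, and otherwise the cause was not tested. Leaving out each tumour in turn gave 72 to 2827 genes. No gene named as passing changed direction under any of the 32 alternatives. For genes whose groups do not overlap, leaving out tumours cannot change it. Of the 101 such named genes, 6 still passed without tumour 9, 9 without tumours 3, 5 and 7, and 56 with Mki67 in place of the groups. Genes that had not passed did turn. For tumour 2 alone the difference was 0.10 for Krt8, 0.0748 for Cdh1, 0.99 for Myc, -0.0927 for Mycn and -1.02 for Scg3. Against tumour 4 alone it was -0.46 for Insm1 and -0.15 for Scg3. Foxa1, at -0.56 with all tumours, was 0.80 with array weights and 1.30 among arrays with dim spike controls. It ran from -1.67 to 1.30 over omissions of single tumours. With Top2a and Mki67 in place of the groups its slopes, per log2 unit, were 0.10 and 0.28. No paired analysis was possible because the labels name no pairing between tumours. Signal near the floor of the scale limits dim genes, and 3 high tumours limit everything else.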
